A study of Homo sapiens with 38 samples.

Results

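The comparison described here is that of Shef6 human embryonic stem cells after 4 days in FAX, which is N2B27 basal medium with added FGF2, Activin A and the tankyrase inhibitor XAV939, against the same cells after 4 days in N2B27 alone. The libraries were chosen by their titles: 2 FAX libraries and 2 N2B27 libraries, all at day 4 of experiment Ex2, which makes 4 of the 38 libraries of the series. The study followed capacitation, the passage of naive pluripotent cells towards competence for lineage formation. Naive Shef6 cells that had been adapted to a serum coating were kept in PXGL, a medium with MEK, tankyrase and PKC inhibitors and LIF, and were then plated on Geltrex, a basement membrane matrix, for differentiation. RNA was measured by QuantSeq, which counts reads near the polyadenylated end of each transcript. For comparison, 2 libraries of N2B27 with XAV939 alone (XAV) and 2 of naive cells on Geltrex at day 0 were used from Ex2. The latter are titled day 0 in PXGL, but their library names carry day 4 and their condition label is PXGLY, so the values given for naive cells of Ex2 rest on the title. From experiment Ex1, 2 libraries each of N2B27, of the commercial media E8 and mTeSR at day 4, and of naive cells on Geltrex at day 0 were used. All of these came from the single line Shef6, and each group held parallel libraries of 1 experiment. The study calls the libraries of a group technical replicates in most places and biological replicates in another, and the labels name no separate cultures. The p-values therefore measure the spread between parallel libraries, which may be technical, and that spread was estimated over all 38 libraries of the series.

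FGF2 acts through FGF receptors and the ERK cascade, whose feedback inhibitors include the Sprouty and DUSP proteins. Activin A acts through the same type I and type II receptors and SMAD2/3 as Nodal, with FOXH1 as a partner on DNA, and its best known target genes in pluripotent cells include the secreted Nodal antagonists LEFTY1 and LEFTY2. XAV939 inhibits tankyrases, which mark AXIN and the angiomotins for degradation. AXIN is part of the complex that destroys β-catenin, and angiomotins hold the coactivator YAP away from the nucleus. FGF and Activin/Nodal signals maintain primed human pluripotent cells.

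Total counts were 3856149 and 4248636 in the N2B27 libraries and 3958014 and 4290100 in the FAX libraries. Mitochondrial transcripts made up 2.65% to 3.03% of counts in N2B27 and 2.76% to 2.87% in FAX. The root mean square difference in log2 CPM (counts scaled to a common library size with TMM factors) over 16674 tested genes was 0.483 between the FAX libraries and 0.476 between the N2B27 libraries, against 0.526 to 0.534 between FAX and N2B27 libraries. The cells carried the general pluripotency markers in both media. POU5F1 stood at 500.5 and 572 CPM in N2B27 and at 422 and 456 in FAX, SOX2 at 239 and 241 against 234 and 235, and NANOG at 1286 and 1190 against 1436 and 1397. None of the 6 general pluripotency markers was called by edgeR or DESeq2, and 1, PRDM14, had an unadjusted p under 0.05. PRDM14, a transcriptional repressor active in pluripotent cells, stood at 19.8 and 17.8 CPM in N2B27 and at 27.5 and 40.7 in FAX. Its log2 difference was 0.86 ± 0.22 (SE) with an edgeR adjusted p of 0.0585. Without FAX replicate 1 PRDM14 was called (log2 1.11, adjusted p = 0.0375), and without FAX replicate 2 its log2 difference was 0.55 (adjusted p = 0.811). In bulk RNA of this kind, fewer cells of a type and less RNA per cell cannot be told apart.

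FAX differed from N2B27 in 56 of 16674 tested genes, a background of 0.336%. A gene was called where the Benjamini-Hochberg adjusted p of edgeR's quasi-likelihood test was under 0.05 and the absolute log2 fold change above 1. Of these genes 10 were higher in FAX (0.06% of those tested) and 46 were lower (0.276%). Without the fold limit 141 genes (0.846%) had an adjusted p under 0.05, and 1461 (8.76%) had an unadjusted p under 0.05. The genes that fell included 7 of the actin cytoskeleton list and BMP4, INHBA, EDN1 and NPPB, which encode secreted signals. The genes that rose included LEFTY2, which had the lowest adjusted p of the 10, and the primitive streak gene MIXL1. In all 56 genes the FAX libraries lay beyond both N2B27 libraries. They did so in 21.9% of all tested genes with FAX higher and in 23.4% with FAX lower. Leaving out a library could therefore hardly reverse a direction, and most other settings reused the same libraries, so the directions kept below are a description. Leaving out FAX replicate 1, FAX replicate 2, N2B27 replicate 1 or N2B27 replicate 2 gave 35, 26, 33 and 31 calls. All 56 genes kept their direction in every other setting that gave them a value, 13 settings for 51 genes and 12 for INHBA, OLR1, PRR5L, CSH1 and REP15, and 12 genes were called in all 13: LEFTY2, ACTA1, ACTC1, ANXA1, BMP4, CDH13, CNN1, GLCCI1, MYL9, NPPB, RGS5 and TAGLN.

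**Figure D1:**
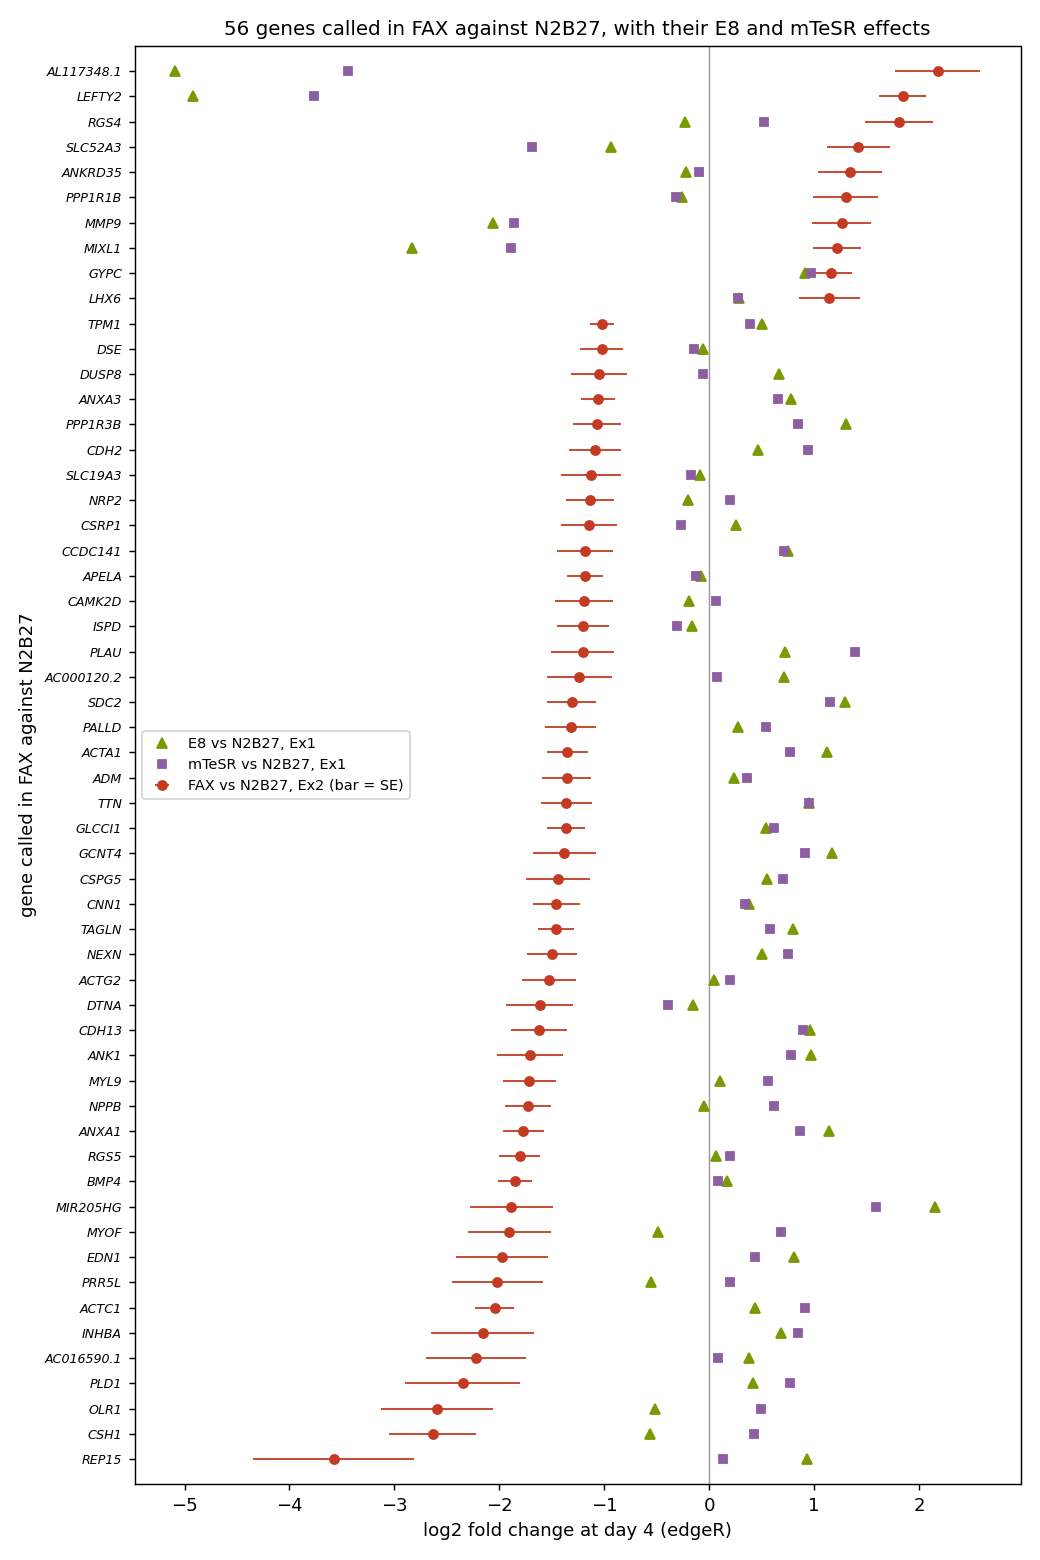
Log2 fold change at day 4 (x axis) of the 56 genes called in FAX against N2B27 (y axis), with FAX in Ex2 as red circles with SE bars, and E8 (green triangles) and mTeSR (purple squares) against N2B27 in Ex1. The red circles run from -3.58 for REP15 to 2.18 for AL117348.1, and for LEFTY2 and MIXL1 the E8 and mTeSR symbols lie on the other side of 0.

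The reference for these calls, N2B27 at day 4, was sampled in both experiments, and its libraries differed between them. In N2B27 of Ex2 against N2B27 of Ex1, 168 genes (1.01%) were called, 65 higher (0.39%) and 103 lower (0.618%). Of the 46 genes that were lower in FAX, 39 had a higher value in N2B27 of Ex2 than of Ex1 and 11 were called so. All 10 genes that were higher in FAX had a lower value in N2B27 of Ex2 than of Ex1, and 3 were called so. Both sets were chosen through the same N2B27 libraries of Ex2, so these counts are a description. Set beside all 4 N2B27 libraries, both FAX libraries were below every one of them in 38 of the 46 lower genes and above every one of them in 9 of the 10 higher genes. DUSP8, CDH2, CSRP1, PLAU, PALLD, GCNT4, NEXN and ANXA1 were the lower genes that overlapped, and PPP1R1B was the higher one. With N2B27 of both experiments in 1 fit and the experiment as a covariate, 46 genes were called, 38 of them among the 56.

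The genes of the Nodal and Activin pathway were led by LEFTY2 (chr1:225936598-225941383, minus strand, GRCh38), which encodes a secreted antagonist of Nodal. LEFTY2 stood at 40.9 and 47.1 CPM in N2B27 and at 161 and 155 CPM in FAX. The FAX libraries lay close together and far above both N2B27 libraries, a log2 fold change of 1.84 ± 0.23 (SE, edgeR adjusted p = 7.47e-06), or 3.59-fold. In XAV the level was 60.0 and 55.8 CPM, and FAX exceeded XAV by 1.45 on the log2 scale (edgeR adjusted p = 0.00298). LEFTY2 was 1 of only 2 genes called between FAX and XAV among 16674 (0.012%), both higher in FAX. The other, the clone-named CU638689.4, was chosen after its values were seen: it differed from XAV by a log2 of 1.55 (edgeR adjusted p = 0.0330) but from N2B27 by 0.75 (adjusted p = 0.267). Leaving out either FAX replicate or XAV replicate 1 left 0 genes called between FAX and XAV.

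LEFTY1 (chr1:225886282-225911382, minus strand), the neighbouring paralog, moved less. It stood at 82.3 and 88.7 CPM in N2B27, at 126 and 130 in FAX and at 95.4 and 103 in XAV. Both FAX libraries were above all of the N2B27 and XAV libraries of Ex2, but the log2 difference from N2B27 of 0.58 ± 0.18 was not called (edgeR adjusted p = 0.152). LEFTY1 and LEFTY2 are similar in sequence, and reads may be split between them by the authors' counting. In N2B27 of Ex1, LEFTY1 stood at 131 and 129 CPM, about the level of FAX.

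Among the 12 tested Nodal and Activin targets and feedback inhibitors, LEFTY2 was the gene called, the median log2 difference was 0.22 beside -0.0068 over all tested genes, and 4 had an unadjusted p under 0.05 with FAX higher. Without FAX replicate 2 that median was 0.064. PMEPA1, a feedback inhibitor of SMAD signalling, stood at 56.02 and 62.6 CPM in N2B27 and 87.4 and 85.2 in FAX (log2 0.54 ± 0.18, edgeR adjusted p = 0.211).

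Of the 15 tested ligands, receptors and transducers of the pathway, INHBA alone was called by edgeR, and it was lower, while DESeq2 called 0 and gave INHBA no adjusted p. INHBA encodes the chain of which Activin A is a dimer, so the medium supplied the protein whose transcript fell. It had 20 and 25 counts in the N2B27 libraries and 6 and 4 in the FAX libraries (5.21 and 5.95 against 1.53 and 0.946 CPM). The ratio of FAX to N2B27 was 0.219, with an exact 95% interval of 0.0985 to 0.441 that covers counting error only. The fitted log2 difference was -2.16 ± 0.49 (edgeR adjusted p = 0.0199), and the call was lost without any single FAX or N2B27 library, with adjusted p values from 0.0896 to 0.396 and log2 differences from -2.53 to -1.85. In XAV the libraries were split at 1.81 and 5.18 CPM. NODAL itself stood at 171 and 171 CPM in N2B27 and 209 and 229 in FAX (log2 0.36 ± 0.16, edgeR adjusted p = 0.489), and its relative GDF3 at 442 and 431 against 535 and 520.1 (log2 0.27 ± 0.11, adjusted p = 0.407). Both were higher in both FAX libraries and neither passed the test.

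**Figure D2:**
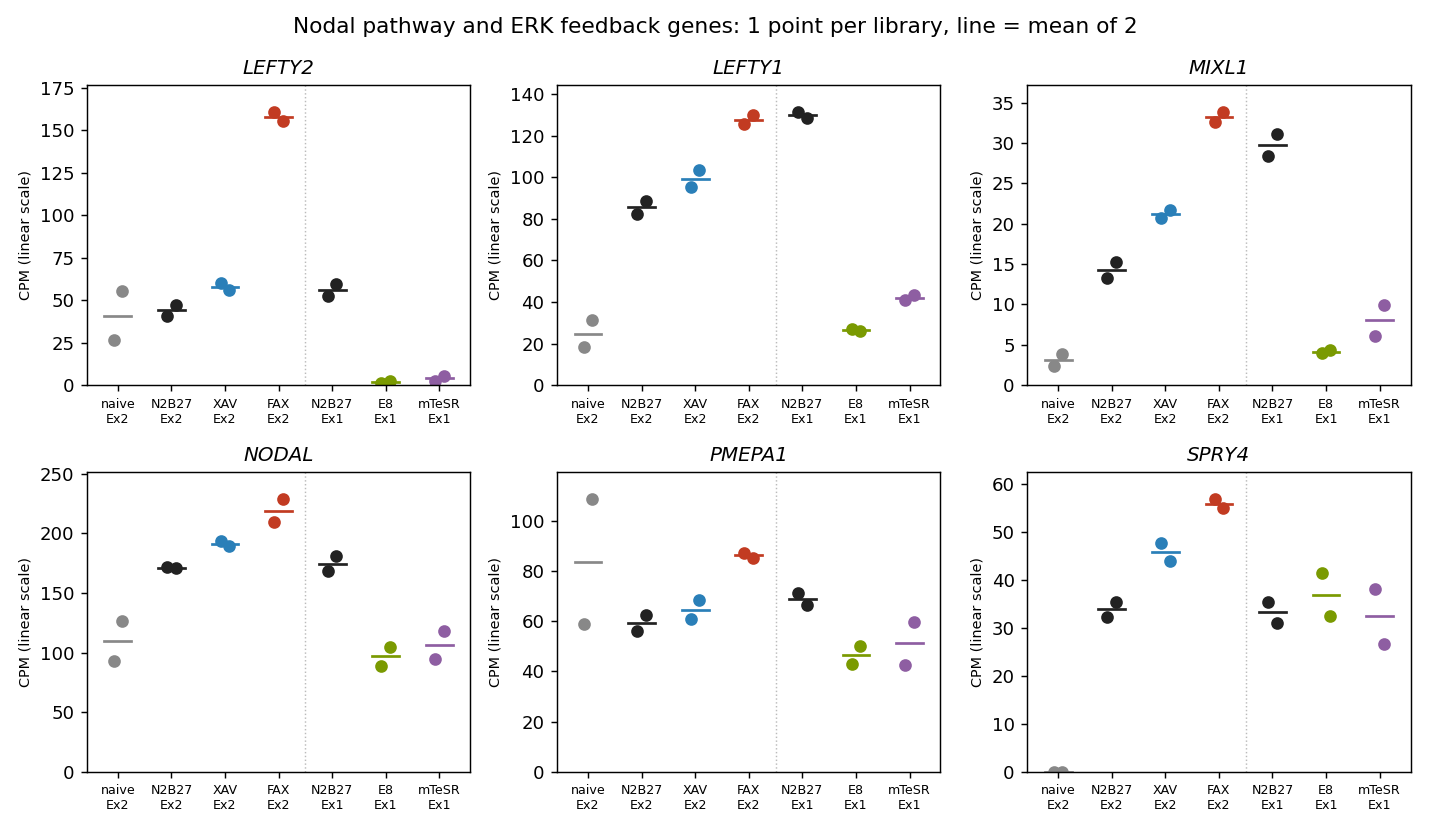
CPM on a linear axis (y) of 6 genes in each library of 7 groups (x), with 1 point per library and a line at the mean of 2. LEFTY2 in FAX sits at 155 and 161 CPM while E8 and mTeSR are under 6 CPM, and for LEFTY1 and MIXL1 the N2B27 libraries of Ex1 lie near those of FAX.

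MIXL1 (chr1:226223618-226227060, plus strand) encodes a homeobox factor of the primitive streak that responds to Nodal signals. It stood at 13.3 and 15.2 CPM in N2B27, 32.6 and 33.8 in FAX, and 20.7 and 21.7 in XAV. FAX was above N2B27 by a log2 of 1.22 ± 0.23 (edgeR adjusted p = 0.00326), and the call was lost without FAX replicate 2 (adjusted p = 0.0787) or N2B27 replicate 1 (adjusted p = 0.0949). In N2B27 of Ex1 the level was 28.4 and 31.2 CPM, called as different from N2B27 of Ex2 and just under the FAX libraries. MIXL1 was the 1 gene called of 13 tested primitive streak and mesendoderm markers. TBXT, the streak factor Brachyury, stood at 16.9 and 21.9 CPM in N2B27 and 13.2 and 15.9 in FAX, and EOMES, GSC and SOX17 were under 5 CPM in every library of both media.

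RefSeq promoter windows, which hold 250 bases before and 50 after a start on GRCh38.p14, were available for 34 of the 46 lower genes and 4 of the 10 higher genes. The MIXL1 window is shown because it holds the letters AATNNACA, which cover the binding motif of FOXH1, the DNA-binding partner of SMAD2/3. The match is on the opposite strand, with its outer edge 249 bases before the start, and stands in capitals in the sequence on the plus strand at chr1:226223414-226223452.

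MIXL1: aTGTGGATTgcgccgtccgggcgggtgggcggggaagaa

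The same letters were found on either strand in 11% of all 35116 windows and in 11 of the 59 windows of the lower genes, so the match is a description. LEFTY2 and LEFTY1 were not among the windows.

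Of the other genes that were higher in FAX, RGS4, a brake on G protein signalling, stood at 4.17 and 4.99 CPM in N2B27 and 15.3 and 17.0 in FAX, a log2 of 1.81 ± 0.32 (edgeR adjusted p = 0.00186). RGS4 in XAV was level with FAX at 15.7 and 16.5 CPM. Its call was lost without FAX replicate 2 (adjusted p = 0.0505) or N2B27 replicate 1 (adjusted p = 0.0646), and N2B27 of Ex1 stood between, at 10.1 and 12.2 CPM. The clone-named gene AL117348.1 had the largest rise, from 4.95 and 6.42 CPM to 28.5 and 23.4 (log2 2.18 ± 0.40, edgeR adjusted p = 0.00274), but the call was lost without FAX replicate 1, N2B27 replicate 1 or N2B27 replicate 2 (adjusted p = 0.0524, 0.0949 and 0.0504). The gelatinase gene MMP9 stood at 7.56 and 7.14 CPM in N2B27 and 17.6 and 17.7 in FAX (log2 1.264 ± 0.28), a call lost without any single FAX or N2B27 library (adjusted p 0.111 to 0.255) and in the fit with N2B27 of both experiments (adjusted p = 0.065). The riboflavin transporter gene SLC52A3 stood at 3.91 and 2.62 CPM against 9.17 and 8.28 (log2 1.42 ± 0.30). The SLC52A3 call was lost without FAX replicate 1, FAX replicate 2 or N2B27 replicate 2 (adjusted p = 0.112, 0.0955 and 0.323), and its log2 difference was 0.65 in the fit with N2B27 of both experiments (adjusted p = 0.489). GYPC, encoding the membrane protein glycophorin C, stood at 11.46 and 9.51 CPM against 24.2 and 22.7 (log2 1.16 ± 0.20, edgeR adjusted p = 0.00149), a call lost without N2B27 replicate 2 (adjusted p = 0.0953) and in the fit with N2B27 of both experiments (log2 0.71, adjusted p = 0.233). The remaining 3, ANKRD35, the phosphatase inhibitor gene PPP1R1B and the LIM homeobox gene LHX6, had log2 differences of 1.34, 1.30 and 1.15 and adjusted p values between 0.0216 and 0.0494. Their calls were lost without any single FAX or N2B27 library, with the lowest adjusted p values at 0.0949 for ANKRD35, 0.112 for PPP1R1B and 0.191 for LHX6, and in the fit with N2B27 of both experiments.

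The clearest gene group was that of the actin cytoskeleton and its serum response genes. Of 19 tested members, 7 fell, 18 had a value below 0 and the median log2 difference was -0.55, beside -0.0068 over all tested genes. DESeq2 also called 7. The list and the 46 lower genes were known from earlier results of these data, so its count is a description. Serum response factor is a transcription factor that binds CArG boxes and is driven by actin dynamics. In bulk, the summed level of the list was 7623 and 7770 CPM in N2B27 and 6297 and 6061 in FAX, most of it from ACTG1 and ACTB. It was 6112 and 6144 CPM in N2B27 of Ex1, within the range of FAX, so the sum was lower in FAX than in N2B27 of Ex2 but not of Ex1. In XAV it was 5813 and 5951 CPM, and against the same N2B27 libraries 8 of the 19 members were called lower in XAV with a median log2 difference of -0.94.

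The members that fell are best known from contractile cells. ACTC1 (chr15:34790107-34795589, minus strand), the cardiac α-actin, stood at 57.3 and 71.6 CPM in N2B27 and 18.1 and 13.3 in FAX. The groups were far apart, with a log2 difference of -2.05 ± 0.19 (edgeR adjusted p = 2.58e-08). ACTC1 in XAV was lower still, at 8.85 and 9.16 CPM, but the log2 difference of FAX from XAV of 0.79 was not called (adjusted p = 0.791). In N2B27 of Ex1 ACTC1 was at 23.7 and 21.7 CPM, nearer to FAX than to N2B27 of Ex2. ACTA1, the skeletal α-actin, stood at 58.1 and 77.3 CPM against 29.3 and 23.9 (log2 -1.35 ± 0.20, edgeR adjusted p = 0.00012). ACTG2, the enteric γ-actin, stood at 21.1 and 22.8 CPM against 8.66 and 6.63 (log2 -1.53 ± 0.26, edgeR adjusted p = 0.00096), and that call was lost without FAX replicate 2 (adjusted p = 0.0968, log2 -1.34).

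TAGLN, which encodes the actin-binding protein transgelin, stood at 126 and 129 CPM in N2B27, 47.9 and 44.7 in FAX and 32.0 and 36.2 in XAV. The N2B27 libraries were well above all others of Ex2, and FAX differed from N2B27 by a log2 of -1.46 ± 0.17 (edgeR adjusted p = 2.45e-06). CNN1, encoding calponin, stood at 107 and 122 CPM against 42.8 and 40.7 (log2 -1.46 ± 0.23). MYL9, a myosin regulatory light chain, stood at 16.9 and 23.3 CPM against 5.86 and 6.39 (log2 -1.71 ± 0.25). TPM1, a tropomyosin, was the most abundant of the 7, at 423 and 435 CPM against 216 and 207 (log2 -1.02 ± 0.12), so close to the fold limit that its call was lost without FAX replicate 2 (log2 -0.99) and in the fit with N2B27 of both experiments (log2 -0.89). The vinculin gene VCL (log2 -0.58 ± 0.095) and TPM2 (log2 -0.85 ± 0.16) had edgeR adjusted p values of 0.000637 and 0.00299 under the fold limit.

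The actins of every cell did not pass the test. ACTB stood at 1138 and 1160 CPM in N2B27 and 1064 and 1002 in FAX, and ACTG1 at 3272 and 3295 against 2982 and 2836. Both were lower in both FAX libraries, by log2 differences of -0.15 ± 0.16 and -0.17 ± 0.13. ACTA2, the smooth muscle α-actin, was at or under 1 CPM in all 4 libraries.

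**Figure D3:**
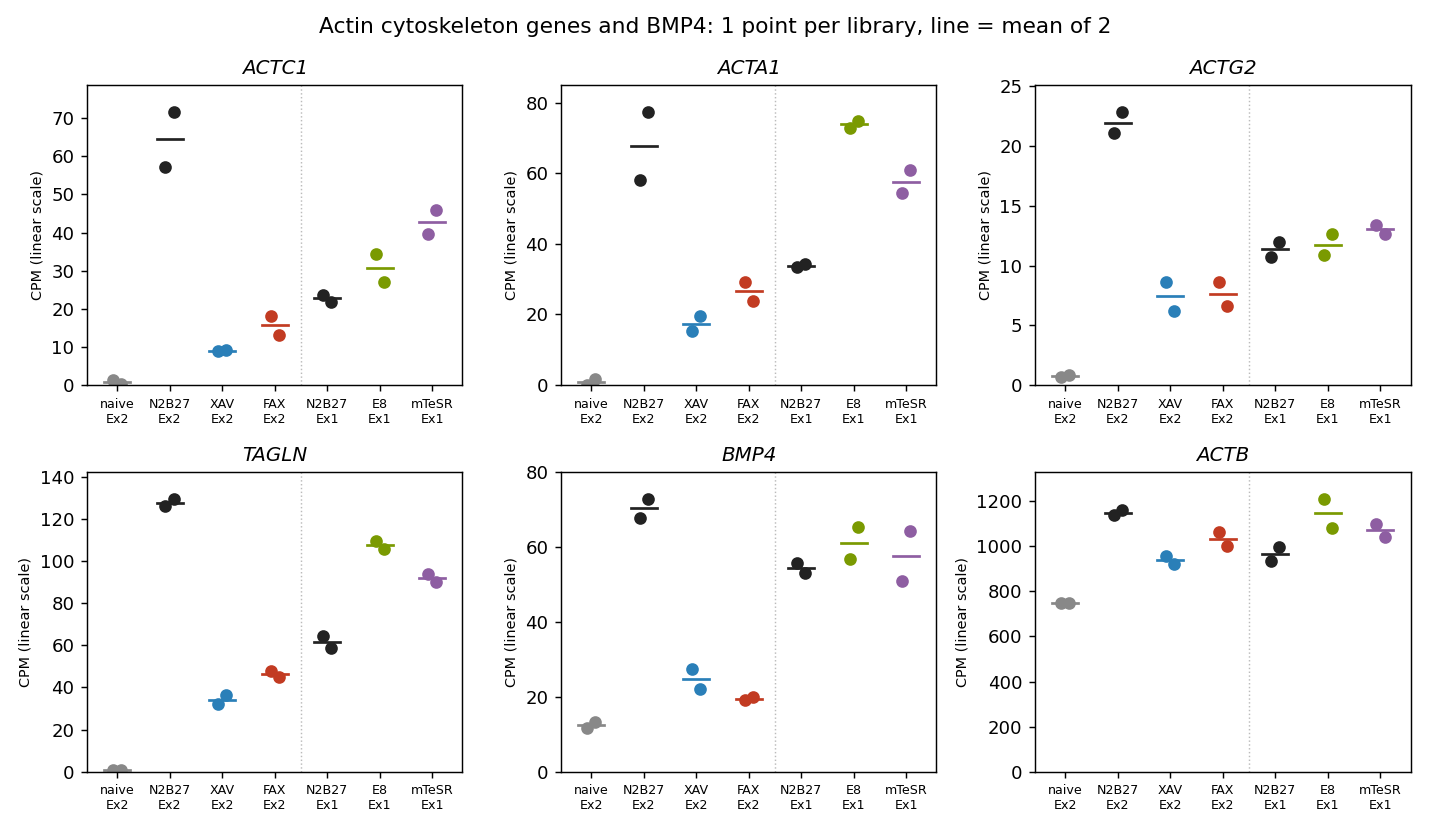
CPM on a linear axis (y) of 5 actin cytoskeleton genes and BMP4 in each library of 7 groups (x), with 1 point per library and a line at the mean of 2. N2B27 of Ex2 is the highest group of Ex2 in every panel, and for ACTC1, ACTA1 and TAGLN the N2B27 libraries of Ex1 lie between those of FAX and N2B27 of Ex2.

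Promoter windows of the actins are shown because the 3 muscle-type actins that fell and the cytoplasmic actin ACTG1 that did not pass the test all hold a CArG box, in capitals, within 110 bases of the start. The stretches are printed in the direction of the gene, on GRCh38.p14: ACTA1 at chr1:229434152-229434221 (minus strand), ACTC1 at chr15:34795619-34795688 (minus strand), ACTG2 at chr2:73892868-73892974 (plus strand) and ACTG1 at chr17:81512854-81512923 (minus strand).

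ACTA1: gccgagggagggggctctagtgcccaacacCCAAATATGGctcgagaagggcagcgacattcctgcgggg

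ACTC1: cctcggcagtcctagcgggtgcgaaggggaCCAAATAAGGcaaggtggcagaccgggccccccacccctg

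ACTG2: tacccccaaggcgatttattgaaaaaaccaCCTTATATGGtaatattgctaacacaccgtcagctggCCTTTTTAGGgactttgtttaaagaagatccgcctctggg

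ACTG1: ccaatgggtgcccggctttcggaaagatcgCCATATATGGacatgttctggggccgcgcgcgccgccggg

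The box starts 97 bases before the start in ACTA1, 109 in ACTC1, 110 and 73 in ACTG2 with its 2 boxes, and 94 in ACTG1. CArG boxes were found in 1.29% of all windows, in 4 of the 59 windows of lower genes (ACTA1, ACTC1, ACTG2 and DSE) and in none of the 9 windows of higher genes. The windows of TPM1 and CNN1 had no match, which says only that these letters are not in these windows. GGAATG, the core motif of the TEAD factors through which YAP acts, was found in 14% of all windows and in 12 of the 59 windows of lower genes.

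Of the called genes outside that list, NEXN, encoding the actin-binding protein nexilin, stood at 51.1 and 54.9 CPM in N2B27 and 18.9 and 18.7 in FAX (log2 -1.497 ± 0.24, edgeR adjusted p = 0.000397). The titin gene TTN stood at 53.4 and 44.5 CPM against 18.3 and 19.6 (log2 -1.36 ± 0.25), and the palladin gene PALLD at 27.9 and 26.6 against 8.92 and 12.8 (log2 -1.32 ± 0.24). The TTN call was lost without FAX replicate 1, FAX replicate 2 or N2B27 replicate 1 (adjusted p = 0.0528, 0.0546 and 0.0592). NEXN and PALLD lost the call in the fit with N2B27 of both experiments (adjusted p = 0.11 and 0.066), and PALLD also without FAX replicate 1 (adjusted p = 0.123). In N2B27 of Ex1 NEXN overlapped with FAX. Of 8 tested intermediate filament genes edgeR and DESeq2 called 0, with a median log2 difference of -0.36 and an unadjusted p under 0.05 in 5 that were lower and 1 that was higher.

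Of the 20 tested YAP/TEAD targets 1 was called, and it was lower (0.276% of all tested genes were). An unadjusted p under 0.05 was found in 10 with FAX lower and 0 with FAX higher, beside 8.76% of all tested genes in either direction. Values were below 0 in 16, and the median log2 difference was -0.40. In XAV against the same N2B27 libraries the median was -0.42 and 2 were called lower. The median log2 difference of FAX from XAV was 0.089, with 0 called. MYOF, encoding the membrane repair protein myoferlin, was the gene called, at 8.34 and 8.32 CPM in N2B27 and 1.78 and 2.60 in FAX (log2 -1.90 ± 0.40, edgeR adjusted p = 0.00966). Its call was lost without any single FAX or N2B27 library, with adjusted p values of 0.0703 to 0.193. CYR61 (now CCN1) stood at 129 and 135 CPM against 78.5 and 71.9 (log2 -0.81 ± 0.14, edgeR adjusted p = 0.00151), and PTPN14, itself a regulator of YAP, at 153 and 140 against 105 and 93.5 (log2 -0.56 ± 0.12, adjusted p = 0.00906). CTGF (now CCN2) stood at 57.6 and 67.1 CPM against 45.6 and 48.5, with a log2 difference of -0.41 ± 0.20 that did not pass the test (adjusted p = 0.592). Of the 15 tested Hippo effectors and angiomotins edgeR and DESeq2 called 0, and 2 had an unadjusted p under 0.05 with FAX lower.

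**Figure D4:**
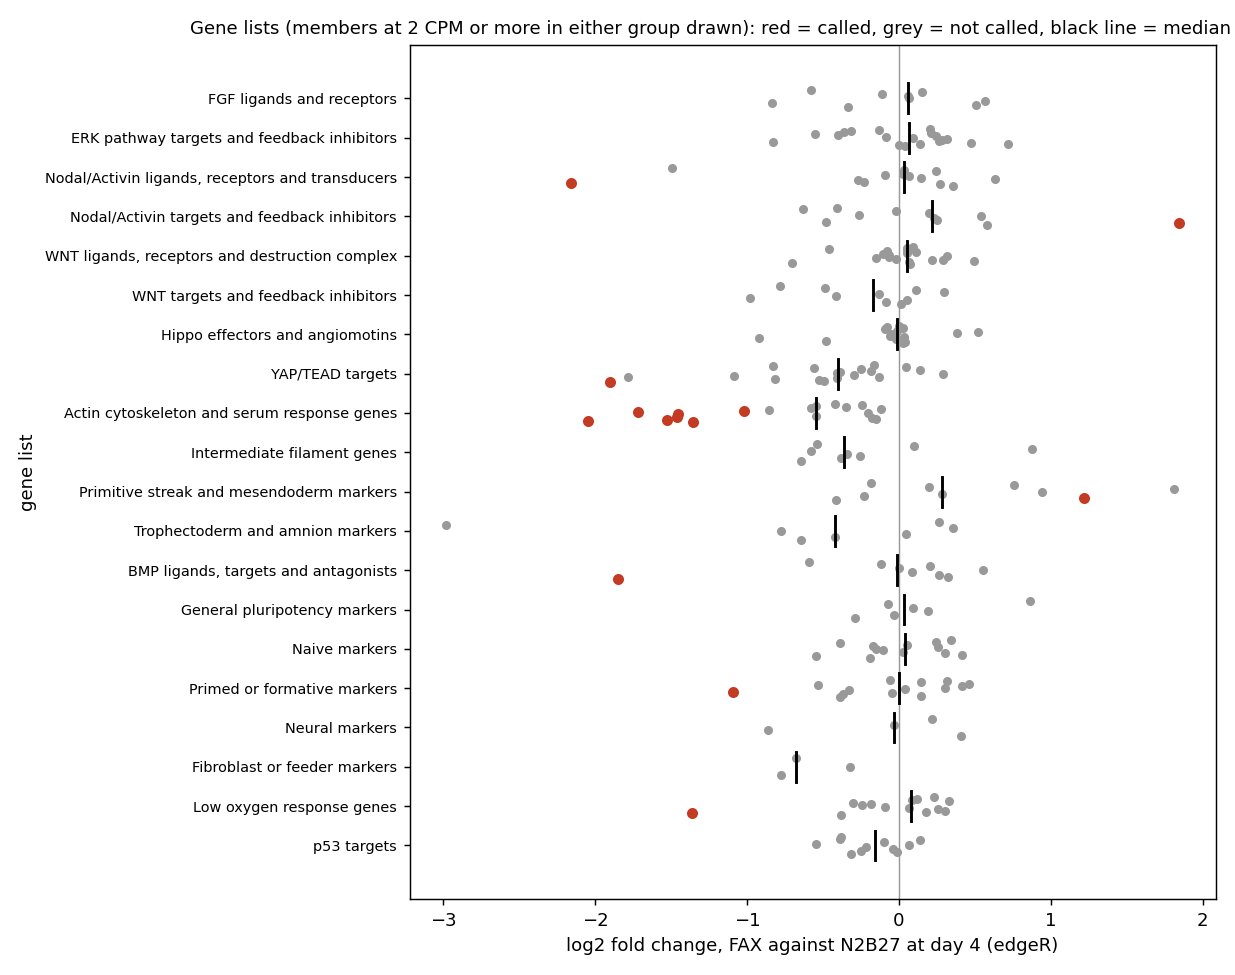
Log2 fold change of FAX against N2B27 (x axis) for members of the 20 gene lists (y axis) with at least 2 CPM in either medium, with called genes in red and the median of all tested members as a black line. Medians sit at -0.55 for the actin list and -0.40 for the YAP/TEAD list, the WNT target list is at -0.17, and the ERK and general pluripotency lists centre near 0.

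BMP4 (chr14:53949736-53958761, minus strand) was the most firmly called of the signalling genes. This ligand of the TGFβ superfamily stood at 67.7 and 72.8 CPM in N2B27, 19.1 and 19.9 in FAX, and 27.4 and 22.1 in XAV. The FAX libraries agreed closely and lay far under N2B27, with a log2 difference of -1.85 ± 0.16 (edgeR adjusted p = 1.35e-08), or 3.60-fold. In N2B27 of Ex1 BMP4 stood at 55.6 and 53.03 CPM, above FAX as well. Of the 12 tested BMP ligands, targets and antagonists, BMP4 was the 1 called. ID3, an inhibitor of differentiation induced by BMP signals, stood at 35.2 and 42.1 CPM in N2B27 and 56.8 and 56.8 in FAX, higher in FAX by a log2 of 0.55 ± 0.16 that did not pass the test (edgeR adjusted p = 0.128).

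NPPB, the precursor of brain natriuretic peptide, stood at 37.8 and 40.4 CPM in N2B27 and 14.3 and 9.46 in FAX (log2 -1.73 ± 0.22, edgeR adjusted p = 1.72e-05). ADM, encoding the vasodilator peptide adrenomedullin, stood at 26.3 and 27.1 CPM against 8.15 and 12.5 (log2 -1.36 ± 0.23, adjusted p = 0.00113), a call lost without FAX replicate 1 (adjusted p = 0.0842). ADM was the 1 gene called of 14 tested genes of the response to low oxygen, whose median log2 difference was 0.077. APELA, a ligand of the apelin receptor made by pluripotent cells, stood at 41.9 and 40.2 CPM against 19.4 and 16.8 (log2 -1.18 ± 0.17), a call lost in the fit with N2B27 of both experiments (log2 -0.87, adjusted p = 0.068). EDN1, encoding endothelin-1, stood at 6.51 and 5.23 CPM against 1.78 and 1.18 (log2 -1.97 ± 0.44, adjusted p = 0.0175), a call lost without any single FAX or N2B27 library (adjusted p 0.0794 to 0.369) and in DESeq2 (adjusted p = 0.0588).

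ANXA1, a phospholipid-binding annexin, stood at 86.0 and 83.7 CPM in N2B27 and 28.5 and 21.3 in FAX (log2 -1.77 ± 0.19, edgeR adjusted p = 8.61e-07). ANXA1 in N2B27 of Ex1 was at 35.2 and 28.1 CPM, overlapping with FAX. RGS5, which like RGS4 encodes a regulator of G protein signalling, moved the opposite way to RGS4. It stood at 55.8 and 47.3 CPM in N2B27 and 14.3 and 15.1 in FAX (log2 -1.80 ± 0.20, adjusted p = 8.61e-07). The atypical cadherin gene CDH13 stood at 14.6 and 14.3 CPM against 4.84 and 4.50 (log2 -1.62 ± 0.27), and N-cadherin, CDH2, at 13.5 and 13.1 against 4.59 and 7.81 (log2 -1.09 ± 0.25, adjusted p = 0.0213). CDH2 was the 1 gene called of 14 tested primed or formative markers, and leaving out FAX replicate 1 moved it to a log2 of -0.77 (adjusted p = 0.422), while N2B27 replicates 1 and 2 left out gave adjusted p values of 0.162 and 0.166. The urokinase gene PLAU, the syndecan gene SDC2 and the neuropilin gene NRP2 had log2 differences of -1.20, -1.31 and -1.14. PLAU lost its call without any single FAX or N2B27 library (adjusted p 0.112 to 0.597), and leaving out 1 library brought the adjusted p up to 0.102 for SDC2 and 0.393 for NRP2.

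Among the rest, CSH1, a placental lactogen, stood at 12.8 and 11.9 CPM in N2B27 and 1.78 and 2.13 in FAX (log2 -2.63 ± 0.42, edgeR adjusted p = 0.000564). CSH1 shares nearly identical paralogs in the growth hormone cluster, so which of them gave these reads is uncertain. OLR1, a scavenger receptor gene, had 16 and 27 counts in N2B27 and 5 and 2 in FAX, a ratio of 0.161 with an exact 95% counting interval of 0.061 to 0.36. MIR205HG, the host gene of the microRNA miR-205, PRR5L, the ankyrin gene ANK1 and the dystrobrevin gene DTNA fell by 1.88, 2.02, 1.71 and 1.62 on the log2 scale. Leaving out 1 library brought the adjusted p up to 0.22 for MIR205HG, 0.19 for ANK1, 0.191 for DTNA, 0.336 for OLR1 and 0.246 for REP15. PRR5L lost its call without FAX replicate 1 (adjusted p = 0.0934), FAX replicate 2 (0.336) or N2B27 replicate 2 (0.255). REP15 and PLD1 were under 5 CPM in both media, with 26 counts each in N2B27 and 2 and 5 in FAX. The PLD1 call was lost without any single FAX or N2B27 library (adjusted p 0.0943 to 0.397) and in DESeq2 (adjusted p = 0.115).

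The lists of FGF, ERK and WNT genes, closest to the added FGF2 and XAV939, gave no calls. Of 9 tested FGF ligands and receptors edgeR and DESeq2 called 0, and 2 in each direction had an unadjusted p under 0.05. FGF2 stood at 429 and 394 CPM in N2B27 and 337 and 314 in FAX (log2 -0.34 ± 0.092, edgeR adjusted p = 0.0772), and FGF4 at 159 and 154 against 221 and 223 (log2 0.51 ± 0.15, adjusted p = 0.121). Of 20 ERK targets and feedback inhibitors 0 were called by edgeR or DESeq2, with a median log2 difference of 0.068 and an unadjusted p under 0.05 in 4 with FAX higher and 2 with FAX lower. SPRY4, a Sprouty inhibitor, stood at 32.3 and 35.4 CPM in N2B27, 56.8 and 54.9 in FAX and 47.7 and 43.8 in XAV, while in naive cells of Ex2 it was at 0 counts in both libraries. FAX exceeded N2B27 in SPRY4 by a log2 of 0.72 ± 0.19 (adjusted p = 0.0804). DUSP4, a nuclear phosphatase of ERK, went down, from 60.2 and 56.4 CPM to 35.4 and 30.3 (log2 -0.83 ± 0.16, adjusted p = 0.00633), under the fold limit.

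Of 16 tested WNT targets and feedback inhibitors edgeR and DESeq2 called 0, with 1 lower at an unadjusted p under 0.05, 10 values below 0 and a median log2 difference of -0.17. AXIN2, the most used readout of β-catenin activity, stood at 36.0 and 37.1 CPM in N2B27, 37.7 and 36.2 in FAX and 40.4 and 44.01 in XAV. Of 19 tested WNT ligands, receptors and destruction complex genes 0 were called by edgeR or DESeq2 and 3 had an unadjusted p under 0.05. FZD5, a Frizzled receptor, was higher in FAX by a log2 of 0.50 ± 0.11 (edgeR adjusted p = 0.0216), at 238 and 239 CPM in N2B27 and 349 and 324 in FAX.

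Markers of state and of other cells gave few calls. Of 14 naive markers edgeR and DESeq2 called 0, with a median log2 difference of 0.042 and an unadjusted p under 0.05 in 2 with FAX higher and 1 with FAX lower. The latter, KLF5, stood at a log2 of -0.54 ± 0.12 (edgeR adjusted p = 0.0122). The median over the 14 tested primed or formative markers was -0.00099. DNMT3B, a de novo DNA methyltransferase, stood at 1195 and 1179 CPM in N2B27 and 1515 and 1441 in FAX (log2 0.32 ± 0.10, adjusted p = 0.178). Of 12 tested p53 targets edgeR and DESeq2 called 0, with a median log2 difference of -0.16 and 2 lower at an unadjusted p under 0.05. Of the 5 tested neural markers edgeR and DESeq2 called 0, and SOX3, the 1 with an unadjusted p under 0.05, had an edgeR adjusted p of 0.00369 at a log2 of -0.86 ± 0.17, under the fold limit. The summed level of the 11 tested trophectoderm and amnion markers, most of it TFAP2C, was 526 and 499.9 CPM in N2B27 and 528 and 503 in FAX, and the median log2 difference was -0.42. Fibroblast markers, of which LUM, DCN and PRRX1 did not pass the filter, summed to 85.7 and 87.5 CPM in N2B27 and 69.5 and 61.8 in FAX over the 5 tested. The fibroblast sum was lower in both FAX libraries, as the contractile genes were, and its part in that result was not tested. All 5 tested members had values below 0 with a median log2 difference of -0.68, edgeR and DESeq2 called 0, and 2 had an unadjusted p under 0.05.

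FAX and XAV share the tankyrase inhibitor, so their difference is that of FGF2 and Activin A in its presence. Over the 46 genes that were lower in FAX than in N2B27, the log2 difference of FAX from XAV ran from -1.78 to 1.08 with a median of 0.053, and none of the 46 passed the test. A p-value that misses the threshold does not show that the media act alike. BMP4 differed between FAX and XAV by a log2 of -0.34 and TAGLN by 0.44 (edgeR adjusted p = 0.902 and 0.851). XAV against N2B27, which uses the same N2B27 libraries, gave 95 calls (0.57%), 6 higher (0.036%) and 89 lower (0.534%). In that comparison LEFTY2 had a log2 difference of 0.39, MIXL1 0.57, RGS4 1.80, BMP4 -1.51, TAGLN -1.90 and ACTC1 -2.84.

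E8 and mTeSR are commercial media for primed cells that likewise supply FGF and a ligand of the TGFβ superfamily. They were compared with N2B27 in Ex1, with no library in common with FAX. E8 gave 415 calls (2.49%) and mTeSR 263 (1.58%). LEFTY2 was at 52.5 and 59.3 CPM in N2B27 of Ex1, 1.25 and 2.37 in E8 and 2.59 and 5.53 in mTeSR, log2 differences of -4.92 and -3.77. The FAX effect on LEFTY2 exceeded the E8 effect by a log2 of 6.76 ± 0.44 (edgeR adjusted p = 3.86e-12) and the mTeSR effect by 5.61 (adjusted p = 6.58e-11). MIXL1 was at 3.97 and 4.34 CPM in E8 and 6.12 and 9.90 in mTeSR, and the FAX effect exceeded theirs by 4.05 and 3.11 (adjusted p = 5.71e-09 and 5.71e-07). MMP9 and AL117348.1 had E8 effects of -2.06 and -5.09. Of the 10 genes that were higher in FAX, 4 were called lower in E8 (1.13% of all tested genes were) and 5 in mTeSR (0.768%). In the difference of effects, 8 of the 10 were called with FAX above E8 (1.07% of all tested genes) and 7 with FAX above mTeSR (0.762%). The choice of the 10 through FAX and N2B27 of Ex2 favours both counts. GYPC and LHX6 were not called in either difference. GYPC had effects of 0.91 in E8 and 0.97 in mTeSR, with adjusted p values of 0.683 and 0.812 for their difference from the FAX effect, and LHX6 had effects of 0.28 and 0.28 (adjusted p = 0.235 and 0.269). RGS4 was not called in the difference from mTeSR (adjusted p = 0.0948).

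The genes that were lower in FAX tended to be level or higher in E8 and mTeSR. Of the 46, 34 had a value above 0 in E8 against N2B27, where 50% of all tested genes did, and 39 in mTeSR, where 50.3% did. In E8 6 were called higher (1.36% of all tested genes were) and in mTeSR 3 (0.81%), and the others were not called. In the difference of effects, 38 of the 46 were called with FAX below E8 (1.53% of all tested genes, of 2.6% called in all) and 39 with FAX below mTeSR (1.2%, of 1.96% in all), which the choice of the 46 through FAX and N2B27 of Ex2 favours. TAGLN was at 64.3 and 58.8 CPM in N2B27 of Ex1, 109 and 106 in E8 and 93.7 and 90.0 in mTeSR. The TAGLN effect of FAX differed from that of E8 by a log2 of -2.27 ± 0.23 (edgeR adjusted p = 1.08e-07). BMP4 was at 56.8 and 65.3 CPM in E8 and 50.8 and 64.2 in mTeSR, against 55.6 and 53.03 in N2B27 of Ex1, so the groups lay close together and that of mTeSR overlapped with N2B27. The FAX effect on BMP4 was lower than that of E8 by a log2 difference of -2.02 ± 0.21 (adjusted p = 1.35e-07). FAX and the commercial media were run in different experiments, so the medium and the experiment enter these differences together, and the N2B27 libraries of each experiment are the only link.

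Most of the genes that were lower in FAX belonged to those that rise as naive cells leave that state. In N2B27 at day 4 against naive cells on Geltrex in Ex1, which uses none of the Ex2 libraries, 35 of the 46 were called higher (11.7% of all tested genes were), 2 lower (4.98%, so 16.6% in all) and 9 neither, with a median log2 difference of 2.54. TAGLN rose by 5.90, ACTC1 by 6.64 and BMP4 by 2.08 on that scale. In Ex2 ACTC1 was at 1.37 and 0.277 CPM in naive cells, so that the FAX level of 18.1 and 13.3 CPM still lay above naive cells and under N2B27. BMP4 was at 11.6 and 13.3 CPM in naive cells of Ex2, also under FAX. APELA and PLD1 were the 2 called lower in that comparison, by log2 differences of -2.35 and -2.64.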

How the data were processed

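The deposited table holds estimated counts per gene, which the authors made from QuantSeq 3′ reads with the nf-core/rnaseq workflow, and which are written as whole numbers with no normalisation. The submitters' processing notes name STAR 2.7.10a, Salmon 1.9.0, FastQC 0.11.9 and DESeq2, and the build was hg38. The 38 libraries were grouped in 19 groups of 2 by medium, day and experiment. In R 4.3.3, edgeR 4.0.16 fitted all 19 groups in 1 quasi-likelihood model, after filterByExpr kept 16674 of 57133 genes and TMM scaled library totals. A gene was called at a Benjamini-Hochberg adjusted p under 0.05, taken over all 16674 tests of a comparison, with an absolute log2 fold change above 1. Standard errors came from the F statistic, and levels are CPM, counts scaled to a common library size. On simulated counts for this comparison, with 16535 genes run, 94 of 100 planted log2 changes of 1.5 and 100 of 100 of 2.5 were called, with 5 false calls. The changes were planted only in genes at 5 CPM or more in N2B27, and counts were drawn with the spread fitted to these data. These shares therefore do not cover genes under that level or a spread unlike the fitted one. A count of 3 was taken as the floor of a library (0.708 to 0.779 CPM in the 4 libraries). Intervals on count ratios are exact and cover counting error only, since reads without molecular identifiers are not independent molecules.

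The comparison, the gene lists and the rule for named genes were chosen with earlier results of these data known. The rule named members of the lists that passed the filter and, among called genes whose libraries did not overlap and whose higher group averaged 5 CPM or more, the 15 largest rises and the 20 largest falls. Other called genes that the text names, such as TTN, PALLD, APELA, PLAU, SDC2, NRP2, DSE, PLD1 and REP15, fall outside it and were chosen after their values were seen. CCN1 and CCN2 were matched as CYR61 and CTGF. Positions are from GENCODE release 44 by symbol, found for 53 of the 56 called genes, and promoter windows from RefSeq on GRCh38.p14. Alternatives were RLE scaling (DESeq2's size factors), plain totals, another filter and no filter, DESeq2 1.42.0, fits to fewer libraries, the experiment as covariate, a replicate block, and leaving out single libraries. Counts of the 2 libraries of a group differed by more than sampling noise (chi-square per degree of freedom 1.54 in N2B27 and 1.57 in FAX), so none was taken as the same library deposited again, but libraries made from 1 culture or RNA would also differ so. One member of the lists is counted but not reported by name here.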

Additional observations from a re-analysis of the deposited data

Results flagged for a closer look

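The effect of FAX against N2B27 in Ex2 differed from that of E8 against N2B27 in Ex1 in 434 of 16674 tested genes (2.6%, edgeR interaction term with Benjamini-Hochberg adjusted p under 0.05 and absolute log2 difference above 1). It differed from that of mTeSR in 327 genes (1.96%). Of the 56 genes called in FAX against N2B27, 46 were among those called in the difference from E8, and 46 in the difference from mTeSR. The 56 genes were chosen through the same FAX and N2B27 libraries of Ex2 that enter these differences, so the shares of 46 are descriptions. FAX and the commercial media were run in different experiments, and medium and experiment cannot be told apart here. With 2 libraries a group, no library could be set apart from its group by a rank of gaps.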

How the results depend on the processing

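For FAX against N2B27, 56 genes were called, 10 higher and 46 lower. Without a filter on low counts the count was 88 (21 higher), with only the 4 libraries of the comparison fitted 134 (36 higher, 98 lower), and in a fit to the 8 libraries of Ex2 95 (22 higher, 73 lower). With N2B27 of both experiments and the experiment as covariate 5 genes were called higher. Leaving out 1 library gave 26 to 35 calls, 4 to 5 higher and 21 to 30 lower. Where 1 library was left to an arm, it was taken to vary like the other groups. DESeq2 called 44, of which 43 were among the 56. FAX against XAV gave 2 calls, 23 without a filter, 1 in DESeq2, 25 in the compared libraries alone and 0 to 1 without a library. XAV against N2B27 gave 165 in the compared libraries alone and 56 to 80 without a library. The difference of FAX and E8 effects gave 807 in the compared libraries alone and 246 to 377 without a library, and that of FAX and mTeSR effects 175 to 246. The cause of these shifts was not tested, except that fits to fewer libraries rest on fewer residual degrees of freedom and leave-one-out fits on fewer samples. The shared fit also held groups with more spread between their libraries. Chi-square per degree of freedom ran up to 10.2 (E8 at day 3), against 1.54 in N2B27 and 1.57 in FAX at day 4 of Ex2. The part of that spread in the shifts was not tested.

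The replicate numbers did not pair the samples: deviations of same-numbered FAX and N2B27 libraries had a correlation of 0.0291 across genes. With the replicate number as a block 53 genes were called, 51 of them among the 56. The share of calls that were lower was 82.7% with RLE scaling and 82.1% with plain totals, against 82.1%. No called gene changed direction in any setting, and over all settings the 56 genes kept the call 559 times and missed it 164 times. The kept directions are a description, since the FAX and N2B27 libraries of each called gene did not overlap and most settings reused them. Depth limits genes such as INHBA, OLR1, PLD1 and REP15, which held 2 to 10 counts over both FAX libraries.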
